A study of Mus musculus with 20 samples.

Results

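The replication-dependent histone genes encode the histones that package newly copied DNA. They were taken as every row of the deposited gene table whose symbol begins with Hist1h, Hist2h, Hist3h or Hist4h, with pseudogenes left out, which gave 68 genes of 36724. The 68 genes comprise 6 linker (H1), 19 H2A, 18 H2B, 12 H3 and 13 H4 genes. They lie in the Hist1 cluster on chromosome 13 (55 genes), the Hist2 cluster on chromosome 3 (10 genes), the Hist3 cluster on chromosome 11 (2 genes) and at Hist4h4 on chromosome 6, all on GRCm38. RNA was sequenced from 20 libraries of mouse neurospheres, free-floating clusters grown from neural stem and progenitor cells. The spheres came from adult C57BL/6 mice, 8 to 12 weeks old, that were knockout for Egfl7 or wild type. Egfl7 encodes a secreted protein that binds Notch receptors, and the extent of the deletion is not stated in the labels. Second-round hippocampal spheres, called HC2, were harvested at culture day 5 from 4 knockouts and 4 wild types. Spheres of the subventricular zone (SVZ), first round, were harvested at day 3 from 3 knockouts and 3 wild types. First-round hippocampal spheres, called HC1, were harvested at day 5 from 3 knockouts and 3 wild types. All donors were male except the 3 HC1 wild types, so genotype and sex cannot be told apart in HC1. The labels number the mice within each group but do not say which cultures were independent. If some were not, the p-values measure a spread that is partly technical.

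Replication-dependent histone mRNAs accumulate in S phase, when the cell needs new histones, and decline when DNA synthesis stops. Most lack a poly(A) tail: the pre-mRNA is cut after a conserved hairpin by a machinery that includes the U7 small nuclear RNA, and the hairpin is bound by the protein Slbp. Npat and Casp8ap2 act in transcription of these genes. Replacement variants such as H2afz and H3f3b are made outside S phase too and carry ordinary poly(A) tails. A few cluster genes, among them Hist1h1c, Hist1h2bc, Hist2h2be and Hist4h4, have described polyadenylated forms.

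The hairpin is shown first because it is the feature that sets these mRNAs apart. The 16-letter histone stem-loop consensus, with its pyrimidine and purine positions, was searched on the RNA strand of the GENCODE M21 transcripts (GRCm38). It occurred in 46 of 68 histone genes, against 53 of 21901 protein-coding genes (0.24%, the histone genes included). In 23 histone genes it ended within 100 bases of an annotated transcript end, against 23 protein-coding genes in all (0.105%). In the next lines the motif is in capitals, with up to 5 bases on each side, 5′ to 3′.
Hist1h1c: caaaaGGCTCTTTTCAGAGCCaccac
Hist1h1e: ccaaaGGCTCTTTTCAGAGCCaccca
Hist2h2aa1: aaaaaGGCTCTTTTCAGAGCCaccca
Hist3h2a: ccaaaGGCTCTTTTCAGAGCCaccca
Hist1h2bb: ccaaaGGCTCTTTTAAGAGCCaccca
Hist1h3e: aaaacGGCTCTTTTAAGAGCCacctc
Hist1h4d: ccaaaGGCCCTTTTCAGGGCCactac
Hist4h4: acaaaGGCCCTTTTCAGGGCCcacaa
The most common form, that of Hist1h1c, occurred in 26 genes. The annotated transcript runs on past the hairpin by 35 bases in Hist2h2aa1 and 23 bases in Hist1h2bb. It runs on by 840 bases in Hist1h1c, 1643 in Hist3h2a and 2445 in Hist4h4. Of the 22 genes without a match, several are annotated as the coding sequence alone, so the missing match says only that these letters are not in the annotated transcript. Hist2h2be, whose transcript is 2620 bases long, had no match either.

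Promoters from RefSeq (GRCm38.p6, 250 bases before to 50 after the start) were matched for 62 of the 68 genes. The motifs searched, on both strands, were the TATA box as TATAAA, the CCAAT box as CCAAT, and the octamer of H2B promoters as ATTTGCAT. TATAAA occurred in a promoter of 35 of 62 histone genes (56.5%), against 15.7% of all 27025 genes with a promoter. CCAAT occurred in 53 of 62 (85.5%), against 41.1%. It was present in every H1, H2A, H2B and H3 promoter in the table, and in 3 of 12 H4 promoters. The octamer occurred in a promoter of 7 of 18 H2A and 7 of 16 H2B genes and of no H1, H3 or H4 gene, against 2.0% of all genes with a promoter. A pair of promoters shows these layouts, with each of the motifs in capitals; ATTGG is CCAAT read on the other strand.
Hist1h2bb, chr13:23746484-23746783, plus strand: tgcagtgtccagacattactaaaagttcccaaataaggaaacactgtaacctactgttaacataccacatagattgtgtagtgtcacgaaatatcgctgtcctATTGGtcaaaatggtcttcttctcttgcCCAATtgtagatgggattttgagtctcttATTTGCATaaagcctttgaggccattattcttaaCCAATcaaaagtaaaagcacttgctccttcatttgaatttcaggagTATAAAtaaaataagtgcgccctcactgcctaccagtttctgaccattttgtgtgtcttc
Hist1h4d, chr13:23581318-23581617, plus strand: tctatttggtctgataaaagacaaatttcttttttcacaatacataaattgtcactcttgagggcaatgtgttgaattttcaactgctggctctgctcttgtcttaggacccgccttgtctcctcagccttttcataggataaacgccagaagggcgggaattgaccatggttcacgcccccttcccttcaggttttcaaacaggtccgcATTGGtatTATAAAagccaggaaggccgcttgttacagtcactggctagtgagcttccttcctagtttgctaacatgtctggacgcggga
The Hist1h2bb promoter holds all 3 motifs. A match is a description of the sequence and not a shown binding site.

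Levels are in RPKM, a read number divided by gene model length and library depth, and differences are in log2(RPKM + 1), which understates the change of low genes. Depth, worked out from the low values and relative to SVZ wild type replicate 1, was 1.48 to 2.61 in HC2 and 0.974 to 1.16 in first-round libraries. For a gene of 500 bases, 3 reads would give 0.224 to 0.394 RPKM in HC2 and 0.504 to 0.600 RPKM in the first round, and such floors cover counting error only. Egfl7 was listed at 0 in all HC2 and HC1 knockouts, against 0.996 to 1.59 RPKM in HC2 wild types and 0.566 to 1.34 RPKM in HC1 wild types. In the SVZ, the library labelled knockout replicate 2 held 2.86 RPKM and the library labelled wild type replicate 3 held 0, and so these 2 libraries contradict the genotype on their labels. The stem cell markers Sox2 (72.1 to 319.9 RPKM) and Nes (59.1 to 562.7 RPKM) were present in every library. The 6 microglial markers summed to at most 0.577 RPKM in any HC2 library and 3.67 RPKM in any first-round library, and the 6 endothelial markers to at most 1.66 RPKM in HC2 and 7.59 RPKM in the first round.

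Second-round spheres held far more histone RNA than first-round spheres. Summed over the 68 genes, the level was 20961, 7585, 24484 and 5193 RPKM in HC2 knockouts (replicates 1, 4, 7 and 8) and 29927, 5331, 5185 and 5706 RPKM in HC2 wild types (replicates 2, 3, 5 and 6). In SVZ libraries the sum was 140, 87.3 and 115 RPKM in knockouts and 127, 113 and 130 RPKM in wild types. In HC1 libraries it was 135, 148 and 104 RPKM in knockouts and 252, 114 and 154 RPKM in wild types. The lowest HC2 library exceeded the highest first-round library 20.6-fold, and the ratio of the HC2 median to the HC1 median was 46.9. Histone genes made up 0.601% to 3.53% of all RPKM in HC2 libraries and 0.0147% to 0.0349% in HC1 libraries.

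**Figure D1:**
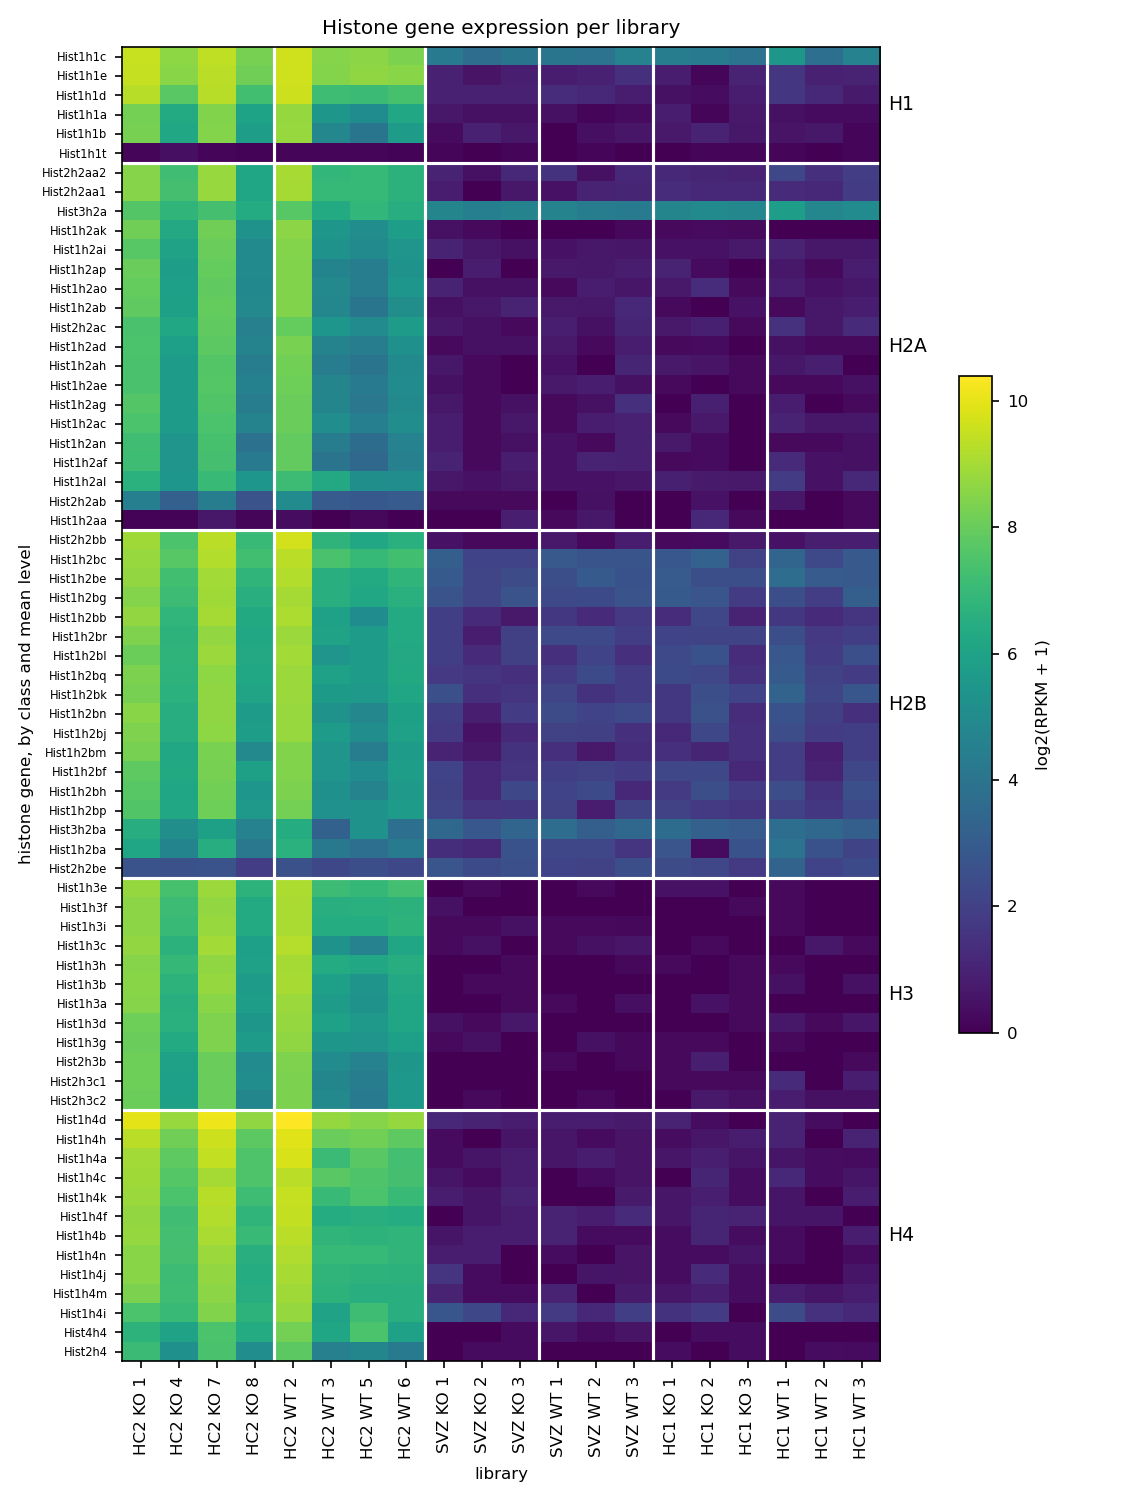
Colour gives log2(RPKM + 1) of the 68 histone genes (rows, by class and mean level) in the 20 libraries (columns; KO, knockout; WT, wild type). Nearly every gene is bright in the 8 HC2 libraries and dark in the 12 first-round libraries, except Hist1h1t, Hist1h2aa and Hist2h2be.

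Of the 67 histone genes that passed the filter on low values, 65 were called higher in HC2 than in HC1 and 0 lower. The test was limma's moderated test with Benjamini-Hochberg adjustment over all 16403 genes tested, at 0.05. Over all genes, 22.8% were called higher and 31.5% lower. With median-ratio scaling, 4805 genes were called higher and 4235 lower, against 3738 and 5166 as deposited, and the count of histone genes called was again 65. The median difference of the histone genes was 5.70, against -0.06 over all genes. Of the 67 genes, 17 passed the filter only through HC2, where they are high, so the count without any filter matters more. All 8 HC2 libraries lay above all 12 first-round libraries in 63 of the 68 genes, against 5.55% of the 28066 genes with any value. Every one of the 31 alternative fits called 65. With the knockout groups alone, all from male donors, the count was also 65. SVZ and HC1 differ from HC2 in sphere round. All labels give the same rRNA-depletion and exon-capture protocol, yet 15 short RNAs that lack poly(A) tails moved with the rounds in the same direction, as given further on. The sphere round and any difference in how the libraries were prepared cannot be told apart.

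H1 genes encode linker histones, which bind DNA between nucleosomes. Hist1h1c had the highest mean level of the class. It held 740.4, 394.3, 682.5 and 305.2 RPKM in HC2 knockouts and 803.8, 365.5, 390.1 and 325.8 RPKM in HC2 wild types. Its first-round values ran from 12.1 to 23.2 RPKM in the SVZ and from 12.9 to 44.3 RPKM in HC1, so it was also the linker gene best seen in the first round. The HC2 minus HC1 difference was 4.44 (SE 0.27, adjusted p = 5.83e-10), and the ratio of the means was 22.3. Hist1h1e held 712.2, 371.4, 636.5 and 282.9 RPKM in HC2 knockouts and 804.1, 350.7, 404.3 and 378.8 RPKM in HC2 wild types. In HC1 it ran from 0.130 to 2.13 RPKM and in the SVZ from 0.472 to 1.75 RPKM, near the floor. Its difference was 7.91 (SE 0.24, adjusted p = 4.75e-14). All 5 linker genes tested rose, with differences from 4.44 to 7.91. The testis linker gene Hist1h1t, the only histone gene removed by the filter, did not exceed 0.328 RPKM in any library.

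Among the H2A genes, which encode a core histone of the nucleosome, 18 of 19 were called higher in HC2 and 0 lower, with a median difference of 5.49. Hist2h2ab, Hist1h2ad, Hist1h2ae and Hist1h2ak passed the filter only through HC2. Without a filter, all 8 HC2 libraries lay above all 12 first-round libraries in 18 of the 19. Hist2h2aa1 and Hist2h2aa2 had the highest means of the class and are near-identical copies, so reads could have been split between them. Hist2h2aa1 held 367.1, 158.4, 441.9 and 71.1 RPKM in HC2 knockouts and 515.0, 124.3, 124.2 and 102.2 RPKM in HC2 wild types. It held 0 to 1.10 RPKM in the SVZ and 1.21 to 2.56 RPKM in HC1. Hist2h2aa2 ran from 68.3 to 530.1 RPKM in HC2, and its differences were 6.07 (SE 0.41, adjusted p = 2.08e-09), against 6.24 for Hist2h2aa1 (SE 0.39, adjusted p = 8.13e-10). Hist3h2a, named after its values were seen, was the H2A gene with the highest first-round level. It held 80.9 to 206.5 RPKM in HC2, 18.1 to 25.3 RPKM in the SVZ and 25.5 to 56.7 RPKM in HC1, so its difference was only 1.92 (SE 0.22, adjusted p = 1.40e-06). The testis gene Hist1h2aa stayed at 0 to 0.577 RPKM in HC2, 0 to 0.807 RPKM in the SVZ and 0 to 1.32 RPKM in HC1.

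H2B genes stood out in the first round: 17 of 18 had a mean over 1 RPKM over the 12 first-round libraries, against 3 of 19 H2A genes, 0 of 12 H3 genes and 1 of 13 H4 genes. The median H2B gene had a first-round mean of 3.11 RPKM, and the median H3 gene 0.130 RPKM. No test was made of that difference between classes. Of the H2B genes, 17 of 18 were called higher in HC2 and 0 lower, with a median difference of 4.84. Hist2h2bb, which had the highest mean, was the H2B gene that stayed under 1 RPKM in the first round. It held 485.4, 175.7, 648.7 and 132.3 RPKM in HC2 knockouts and 830.3, 108.4, 73.3 and 95.4 RPKM in HC2 wild types. The HC1 range was 0.217 to 0.831 RPKM, and the difference was 7.17 (SE 0.46, adjusted p = 9.61e-10). Hist1h2bc held 438.4, 209.7, 591.3 and 152.1 RPKM in HC2 knockouts and 637.6, 168.5, 125.7 and 151.7 RPKM in HC2 wild types, against 3.01 to 9.65 RPKM in HC1. That is a difference of 5.21 (SE 0.38, adjusted p = 5.39e-09).

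The remaining H2B genes of interest differed less. Hist1h2ba, a testis H2B gene, ran from 12.8 to 99.9 RPKM in HC2, from 1.22 to 5.12 RPKM in the SVZ and from 0.223 to 14.5 RPKM in HC1. HC1 wild type replicate 1 thus overlapped the lowest HC2 library. Its difference was 2.66 (SE 0.53, adjusted p = 0.000455). Hist3h2ba overlapped too, at 8.46 to 88.3 RPKM in HC2 and 6.87 to 12.7 RPKM in HC1, with a difference of 1.74 (SE 0.41, adjusted p = 0.00175). In Hist2h2be all HC2 values lay within the HC1 range. It held 5.30, 5.06, 5.32 and 2.71 RPKM in HC2 knockouts and 5.05, 3.77, 4.58 and 3.76 RPKM in HC2 wild types, against 4.13, 3.60 and 2.36 RPKM in HC1 knockouts and 9.03, 3.32 and 4.06 RPKM in HC1 wild types. The difference of 0.08 (SE 0.18, adjusted p = 0.750) was not called. The SVZ range was 3.09 to 5.66 RPKM. Hist2h2be and Hist1h2aa were the only tested histone genes not called between the rounds.

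H3 genes, which encode another core histone, had the narrowest range of differences among the classes, from 5.74 to 7.57, and all 12 were called higher. Every H3 gene except Hist1h3d passed the filter only through HC2, where it is high, so these calls are not independent of the filter. Without a filter, all 8 HC2 libraries lay above all 12 first-round libraries in each of the 12 genes. Hist1h3e, of the highest mean, held 431.1, 163.7, 458.4 and 104.1 RPKM in HC2 knockouts and 561.5, 140.9, 120.2 and 157.9 RPKM in HC2 wild types. In the first round it was listed at 0 in 7 of 12 libraries and reached 0.417 RPKM. Its difference was 7.57 (SE 0.35, adjusted p = 1.46e-11). Hist1h3f ran from 81.7 to 547.3 RPKM in HC2 and from 0 to 0.199 RPKM in HC1, with a difference of 7.38 (SE 0.40, adjusted p = 1.17e-10). The 3 Hist2 H3 genes, Hist2h3b, Hist2h3c1 and Hist2h3c2, share between 61.6% and 100% of their 100-base stretches with another annotated gene, so their separate values are uncertain.

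H4 genes, the last core class, had a median difference of 7.25, with all 13 called higher at 5.55 to 8.80. Hist2h4 and Hist4h4 passed the filter only through HC2. Without a filter, all 8 HC2 libraries lay above all 12 first-round libraries in each of the 13. The order of the H3 and H4 medians depends on the pseudocount: H4 was above H3 with 1 (7.25 and 6.78) and below it with 0.1 (9.06 and 9.30). Hist1h4d, the histone gene of highest mean level, held 1015, 441.4, 1120 and 404.1 RPKM in HC2 knockouts and 1352, 436.9, 365.2 and 429.6 RPKM in HC2 wild types. It held 0 to 1.06 RPKM in HC1 and 0.693 to 1.23 RPKM in the SVZ, an estimated 0 to 5.1 reads per first-round library. The difference of 8.80 (SE 0.31, adjusted p = 4.39e-13) was the largest among the histone genes on this scale, and 10.78 was the largest with a pseudocount of 0.1. Genes such as Hist1h3f, whose HC1 mean of 0.0648 RPKM lies further below the floor than the 0.432 RPKM of Hist1h4d, cannot be ranked against it by a ratio of means. Hist1h4h held 216.1 to 960.8 RPKM in HC2 and 0 to 1.00 RPKM in HC1, with a difference of 7.96 (SE 0.33, adjusted p = 4.67e-12). Hist4h4, which has a described polyadenylated form, was at 61.3 to 298.8 RPKM in HC2, 0 to 0.535 RPKM in the SVZ and 0 to 0.275 RPKM in HC1. The deposited gene model of Hist4h4 spans 439 bases, against 2863 for its annotated transcript. Reads beyond that model may be missing from its values.

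**Figure D2:**
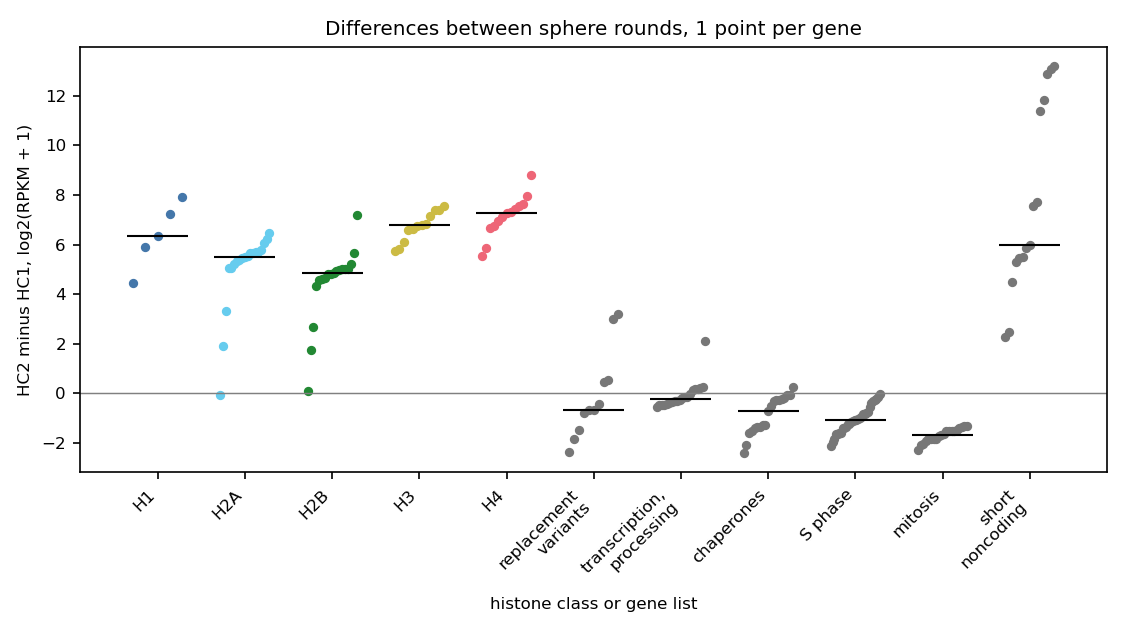
Each point is the HC2 minus HC1 difference in log2(RPKM + 1) of 1 gene, and lines are medians, for the 5 histone classes and for other gene lists. Histone classes and the short noncoding RNAs lie high above 0, with S phase and mitosis genes below it.

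Sets of genes made by the annotated transcript end had close first-round levels. The 23 genes whose annotated transcript runs over 100 bases past the hairpin had a median first-round mean of 0.511 RPKM. The 23 genes that end within 100 bases of it had 0.573 RPKM, and the 22 without a match had 0.493 RPKM. All 3 sets had between 7 and 8 genes with a first-round mean over 1 RPKM. Their HC2 medians of 184, 187 and 157 RPKM were likewise close. The sets rest on GENCODE ends, but the RPKM rest on deposited gene models that can be shorter. Hist1h1d spans 776 bases there, against 7425 in its annotated transcript, and Hist3h2a 508 against 2146. The sets therefore cannot show whether long transcripts differ in level.

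Other genes of S phase did not move with the histone genes between the rounds. Of 30 S phase genes, 0 were called higher in HC2 than in HC1 and 15 lower, with a median difference of -1.09. Rrm2, a subunit of the enzyme that makes deoxynucleotides, fell by 2.14 (SE 0.59, adjusted p = 0.00575), to between 4.70 and 104.9 RPKM in HC2, against 36.8 to 164.1 RPKM in HC1. Pcna, the sliding clamp of DNA polymerase, fell by 1.65 (SE 0.36, adjusted p = 0.000923). Of 20 mitosis genes, 18 were called lower and 0 higher, with a median of -1.68, among them Ccnb1, cyclin B1 (-2.31, SE 0.55, adjusted p = 0.00194).

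Replacement variants split. Of 11, 4 were called higher in HC2 and 7 lower. H2afx, the variant phosphorylated at DNA breaks, was at 18.1 to 244.8 RPKM in HC2 and 3.30 to 8.93 RPKM in HC1 (difference 3.00, SE 0.53, adjusted p = 0.000134). H2afx shares exact stretches of 100 bases, the read length, with H2A genes such as Hist2h2aa1 and Hist1h2ai. Its values may therefore hold reads of those genes, which was not tested. H2afj rose by 3.22 (SE 0.25, adjusted p = 9.52e-09) and H3f3a by 0.53 (SE 0.13, adjusted p = 0.00259). H2afz fell to 14.9 to 53.2 RPKM in HC2, against 113.5 to 202.1 RPKM in HC1 (-2.38, SE 0.26, adjusted p = 1.00e-06). H3f3b (-0.66, SE 0.10, adjusted p = 4.04e-05) and H1f0 (-0.66, SE 0.13, adjusted p = 0.000518) were lower.

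Genes of the histone expression machinery mostly moved by small amounts. Of 20 genes for histone transcription and mRNA processing, 3 were called higher and 11 lower, with a median of -0.23. One of the 3, Rnu7, was at 1.59 to 5.08 RPKM in HC2, an estimated 1.71 to 7.72 reads, and was listed at 0 in all 6 HC1 libraries, so no fold is given. Like the short RNAs named next it has no poly(A) tail. Npat was at 18.4 to 23.1 RPKM in HC2 and 19.2 to 23.1 RPKM in HC1 (difference -0.02, SE 0.06, adjusted p = 0.763). Slbp was at 25.6 to 65.3 RPKM in HC2 and 35.6 to 54.6 RPKM in HC1 (-0.27, SE 0.20, adjusted p = 0.262). Casp8ap2 fell by 0.37 (SE 0.13, adjusted p = 0.0255). Of 19 histone chaperones, which carry histones to DNA, 1 was called higher and 12 lower. Nap1l1 had the largest decrease (-2.41, SE 0.13, adjusted p = 6.17e-11).

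The short noncoding RNAs, chosen after their values were seen, moved as the histone genes did. All 15 were called higher in HC2 and 0 lower, with a median difference of 6.00. Scarna2, Rnu1a1 and Rnu12 were listed at 0 in all HC1 libraries, so their differences depend on the pseudocount. The list holds products such as the spliceosomal, small Cajal body and Y RNAs, which carry no poly(A) tail. Rn7sk, which regulates transcription elongation, was at 17875 to 51775 RPKM in HC2, 13.7 to 20.2 RPKM in the SVZ and 4.71 to 14.7 RPKM in HC1. Rmrp, the RNA of an RNA-processing ribonuclease, was at 1711 to 6228 RPKM in HC2 and 0 to 0.935 RPKM in HC1. What part these differences between libraries have in the histone result was not tested.

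The makeup of histone RNA also differed between the rounds. H4 genes held 25.9% to 40.2% of the summed histone RPKM in HC2 libraries, 4.44% to 10.0% in SVZ libraries and 3.34% to 7.42% in HC1 libraries. H3 genes held 12.2% to 19.4% in HC2 and 0.894% to 1.97% in HC1. In contrast, H2B genes held 15.9% to 26.8% in HC2 and 45.5% to 52.4% in HC1, and H2A genes 11.4% to 17.7% in HC2 and 25.4% to 31.2% in HC1. For each of these 4 classes the HC2 and HC1 libraries did not overlap. The first-round H2A share rested mostly on 1 gene, Hist3h2a. It held 27.1 of 32.3 RPKM in HC1 knockout replicate 3 and 56.7 of 73.7 RPKM in HC1 wild type replicate 1. In HC2 wild type replicate 5 it held 117.8 of 669.5 RPKM. The H2A contrast therefore does not describe the class without Hist3h2a. H1 genes did overlap, with 10.8% to 18.8% in HC2 and up to 19.6%, with a median of 16.6%, in HC1.

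**Figure D3:**
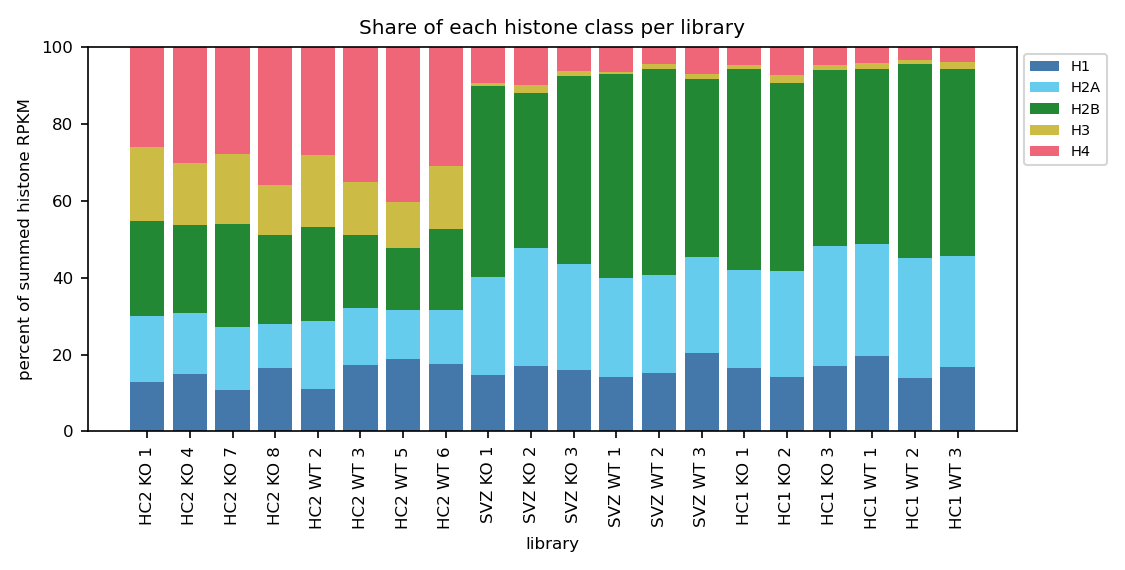
Share of the summed histone RPKM held by each class, as stacked bars per library (KO, knockout; WT, wild type). H3 and H4 fill a large part of every HC2 bar, and H2A and H2B most of every first-round bar, where Hist3h2a holds most of the H2A part.

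HC2 libraries differed widely among themselves, in the same way in nearly all histone genes. In 64 of 68 genes the 3 highest HC2 libraries were knockout replicates 1 and 7 and wild type replicate 2. The ratio of the highest to the lowest HC2 library had a median of 9.65 over the 67 genes that had no HC2 library at 0. It was over 10 in 31 genes and under 3 in 4. Hist1h1b, a linker gene, had the widest range, at 305 and 355 RPKM in knockout replicates 1 and 7 and 439 RPKM in wild type replicate 2, against 15.4 to 72.1 RPKM in the other 5 HC2 libraries. That is a 28.4-fold range. By contrast, Hist1h1c spanned 2.63-fold, Hist1h1e 2.84-fold, Hist3h2a 2.55-fold and Hist2h2be 1.96-fold.

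The libraries high in histone RNA were also high in other proliferation genes within HC2. The S phase sum was 1411 and 1505 RPKM in knockout replicates 1 and 7 and 1754 RPKM in wild type replicate 2, against 221 to 424 RPKM in the other 5. The mitosis sum was 1200 to 1480 RPKM in those 3 libraries and 27.4 to 390 RPKM in the other 5. The sum of the astrocyte markers ran the other way, at 1900 to 2223 RPKM in those 3 libraries and 3099 to 4898 RPKM in the other 5. Gfap, Aqp4, S100b, Slc1a2 and Aldoc were each lower in all of those 3 libraries than in the other 5. Aldh1l1 and Slc1a3 overlapped between the 2 sets of libraries. Short noncoding RNAs did not follow: their sum was 97160 to 162900 RPKM in those 3 libraries and 64300 to 203300 RPKM in the other 5. The libraries form 2 clusters, so no correlation is given. In bulk RNA, fewer dividing cells and less RNA per dividing cell cannot be told apart.

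Knockout was compared with wild type within each region and round. In HC2, 0 of 67 histone genes were called, against 4 of 16403 genes (0.0244%). At an unadjusted limma p under 0.05 there were 0 histone genes, against 644 of all 16403 genes. The histone differences were on the high side, with 66 of 67 above 0 and a median of 0.72, against 0.00 over all genes. In 64 of the 68 genes the same 3 libraries were highest, knockout replicates 1 and 7 and wild type replicate 2. The 66 signs are therefore not independent. What part the fall of these 3 libraries between the genotypes has in the signs was not tested. By smallest p, Hist1h1b had 305, 72.1, 355 and 56.4 RPKM in HC2 knockouts and 439, 27.0, 15.4 and 52.6 RPKM in HC2 wild types, with a difference of 1.35 (SE 0.76, adjusted p = 0.988). The groups overlapped through wild type replicate 2, the highest library, and the other wild types lay below every knockout. Hist1h3c differed by 1.22 (SE 0.77), Hist1h2bn by 1.15 (SE 0.75), Hist1h2bb by 1.10 (SE 0.70) and Hist3h2ba by 0.83 (SE 0.53), each with an adjusted p of 0.988. The S phase list moved the same way, with 30 of 30 above 0, a median of 0.79 and 0 called. Single libraries weigh on these values. The refit counts at an unadjusted limma p under 0.05 are of histone genes only. They lack the matching share of all genes and come from genes that move together. They cannot be read as particular to histone genes. Without HC2 wild type replicate 2 the histone median was 1.44, with 51 genes at an unadjusted p under 0.05 and still 0 called. Without knockout replicate 8 it was 1.16, with 13 such genes and 0 called. It was 0.431 without knockout replicate 1, 0.335 without knockout replicate 7, 0.475 without wild type replicate 3 and 0.390 without wild type replicate 5.

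**Figure D4:**
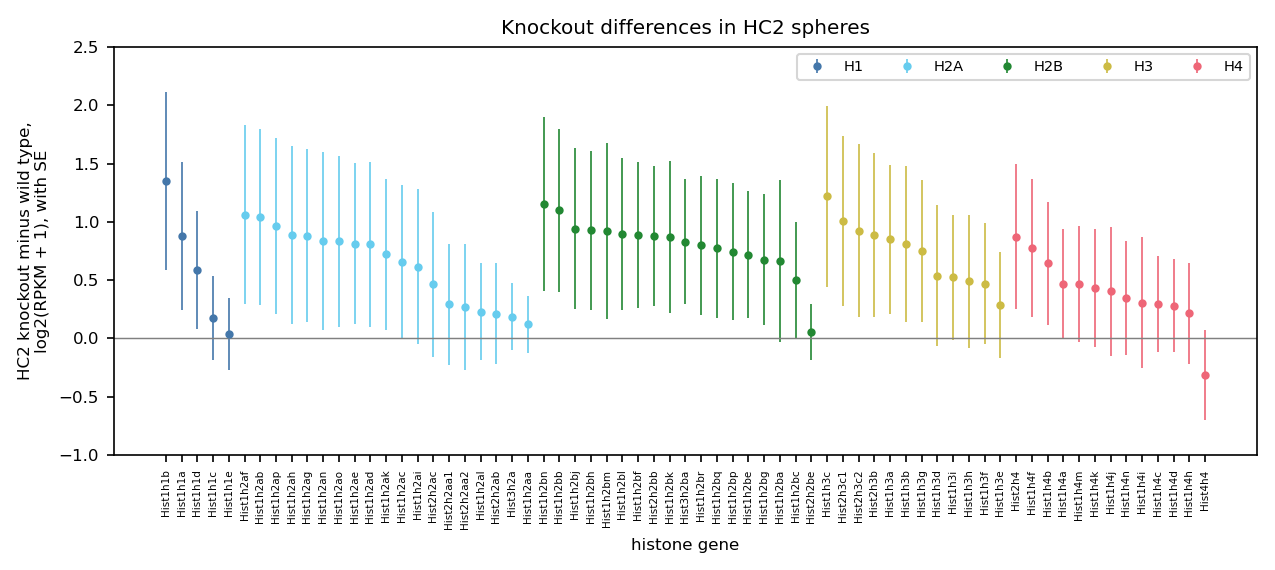
HC2 knockout minus wild-type difference in log2(RPKM + 1), with its SE, for the 67 histone genes tested (4 libraries per genotype), by class and size. All but 1 lie above 0, with errors of up to 0.77, and none was called.

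The first-round knockout comparisons called no histone gene either. In HC1, 0 of 67 were called, against 0.0122% of all genes. At an unadjusted limma p under 0.05 there were 0 histone genes, against 646 of 16403 genes. The median histone difference was -0.15, with 22 of 67 above 0. The S phase list had 30 of 30 above 0 in HC1, a median of 0.56 and 0 called, so there the histone and S phase medians had opposite signs. The HC1 histone median was -0.015 without wild type replicate 1, -0.045 without knockout replicate 3, -0.246 without wild type replicate 2 and -0.31 with a pseudocount of 0.1. HC1 wild type replicate 1 held the highest first-round sum, 252 RPKM. In the SVZ, by the labels, 0 of 67 were called, against 0.0122% of all genes, with a histone median of -0.09. At an unadjusted limma p under 0.05 there were 0 histone genes, against 379 of 16403 genes. Leaving out the 2 SVZ libraries that go against their Egfl7 label also gave 0 calls. Over HC1 and HC2 together, 0 histone genes were called, against 0.0305% of all genes. At an unadjusted limma p under 0.05 there were 0 histone genes, against 970 of 16403 genes. The histone median was 0.29. This median was 0.649 without HC2 wild type replicate 2, with 18 genes at an unadjusted p under 0.05, and 0.495 without knockout replicate 8. Leaving out HC2 knockout replicate 1 gave 0.139, knockout replicate 7 gave 0.096, wild type replicate 3 gave 0.165 and wild type replicate 5 gave 0.12. The knockout effect in HC2 minus that in HC1 had 0 histone calls (0.0244% of all genes) and a median of 0.82. The knockout effect in HC2 minus that in the SVZ had 0 as well (0.0305%) and a median of 0.75. In both, 0 histone genes had an unadjusted limma p under 0.05, against 421 and 324 of 16403 genes. The refit counts in this paragraph also lack the share of all genes. Without HC2 wild type replicate 2 these medians were 1.56 (32 genes at an unadjusted p under 0.05) and 1.46 (31 genes), again with 0 called. Without HC2 knockout replicate 7 they were 0.45 and 0.359, without knockout replicate 1 they were 0.476 and 0.39, and without wild type replicate 5 they were 0.501 and 0.433. The second was also 0.467 without HC2 wild type replicate 3 and 1.207 without knockout replicate 8. Comparisons that use the same HC2 libraries share them and are not independent. Rnu7, the U7 RNA of histone mRNA processing, was called in the SVZ knockouts by the labels, at 2.48, 3.77 and 3.81 RPKM, against 0 in all 3 SVZ wild types. For this gene of 62 bases those levels are an estimated 1.71 to 2.57 reads. The estimates are not whole reads and so are only approximate. They lie at or under the floor of 3, so no fold is given. The value of 3.77 RPKM belongs to SVZ knockout replicate 2, which goes against its Egfl7 label. SVZ wild type replicate 3, with Rnu7 at 0, does so too.

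The SVZ and HC1 spheres, both of the first round, held overlapping amounts of histone RNA, with the sums given above. No histone gene was called between them (0 of 67, 1 with an unadjusted limma p under 0.05), against 14.5% of all genes called higher and 19.6% lower in the SVZ. Of all 16403 genes, 7347 had an unadjusted limma p under 0.05. With median-ratio scaling, 3204 genes were called higher and 2611 lower, against 2372 and 3221 as deposited. The gene with the smallest p was Hist3h2a, at 25.3, 21.2 and 23.8 RPKM in SVZ knockouts and 23.8, 19.8 and 18.1 RPKM in SVZ wild types, against 25.5 to 56.7 RPKM in HC1. The groups do not overlap, but the difference of -0.52 (SE 0.24, adjusted p = 0.0990) was not called. It was called in a fit of only the groups compared (adjusted p = 0.0162). S phase genes, in contrast, were higher in the SVZ, with 20 of 30 called and 0 lower and a median of 1.28. The SVZ was harvested at day 3 and HC1 at day 5, so region and culture day cannot be told apart.

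Near-identical copies limit the resolution between single genes. Of the 68 genes, 61 share at least 1 exact stretch of 100 bases, the read length, with another annotated gene, and 25 share over 50% of theirs. Shared fully are Hist2h3c1 and Hist2h2aa2. Hist2h2be, Hist2h4, Hist1h1a, Hist1h1b, Hist1h1t, Hist1h4d and Hist1h2aa share none. The largest and the widest-ranging differences, those of Hist1h4d and Hist1h1b, belong to genes with no such shared stretch.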

How the data were processed

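Expression was measured in 20 libraries. The deposited tables give linear total RPKM for each gene, per the file headers, and blanks were read as 0. Per the labels' protocols, RNA was isolated with Trizol, ribosomal RNA was removed, and stranded paired-end NovaSeq libraries were captured with mouse exon baits. The submitters' processing notes name FastQC (0.11.5), DESeq2 and the build mm10 (GRCm38), and no aligner, read counter or strand setting was found in the labels or headers. Since RPKM are normalized values, count models were not used. Read numbers were estimated from the steps between low values and are approximate.

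A minimum of 0.5 RPKM in 3 or more libraries left 16403 genes, 67 of the 68 histone genes among them. limma 3.58.1 (R 4.3.3; trend and robust eBayes) was fitted to log2(RPKM + 1) with 1 mean for each of 6 groups, leaving 14 residual degrees of freedom. p-values are two-sided and Benjamini-Hochberg adjusted over all kept genes, with a threshold of 0.05. The code was tested on simulated data. Hist genes were matched to GENCODE M21 transcripts and RefSeq promoters.

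The members and gene lists were chosen with earlier results of these data known. Genes named are the 2 of highest mean per class, those with described polyadenylated forms, the testis genes, up to 4 called per direction and contrast by size, the 5 of smallest p in HC2, and Slbp, Npat, Casp8ap2 and variants with called list members. From the called list members only some are printed. The short noncoding RNAs and the exclusion of the SVZ libraries that go against their label were added after seeing the data. Same-numbered libraries did not deviate together within the SVZ or HC1. Nor did HC2 and first-round libraries that share a mouse number and donor sex, which cannot exclude a shared donor (closing section).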

Additional observations from a re-analysis of the deposited data

Results flagged for a closer look

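In each HC2 group of 4 libraries, 27 values were checked for a library whose gap to its nearest neighbour takes more of the group's range than Dixon's critical value allows, and 25 of 54 did. Chance flags about 1 in 20 groups, and these values are not independent of each other. In the HC2 wild types, 22 values were flagged, and in each the library apart was replicate 2, the highest. The gap was 0.979 of the range for the sum over all histone genes, 0.971 for the H1 sum, 0.971 for H2A, 0.943 for H2B, 0.939 for H3 and 0.952 for H4.

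Among single genes of HC2 wild types the gap was 0.912 for Hist1h1b, 0.866 for Hist1h1c and 0.882 for Hist1h1e. It was 0.947 for Hist2h2aa1 and 0.951 for Hist2h2aa2. For H2B genes it was 0.943 for Hist1h2ba, 0.909 for Hist1h2bb, 0.916 for Hist1h2bc, 0.924 for Hist1h2bn and 0.954 for Hist2h2bb. For H3 genes it was 0.922 for Hist1h3c, 0.915 for Hist1h3e and 0.977 for Hist1h3f, and for H4 genes 0.891 for Hist1h4a, 0.927 for Hist1h4d and 0.911 for Hist1h4h. The knockouts split into replicates 1 and 7 and replicates 4 and 8 and so gave no such gap in the sums.

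In HC2 knockouts 3 values were flagged. Hist1h1t was highest in replicate 4 (gap 0.904 of the range, at 0.328 RPKM) and Hist1h2aa in replicate 7 (0.911, at 0.577 RPKM), both near the floor. Hist2h2be was lowest in replicate 8 (0.902, at 2.71 RPKM).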

How the results depend on the processing

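All 31 alternatives gave 65 histone genes called higher in HC2 than in HC1, with medians from 5.27 to 7.36. The alternatives to the knockout comparisons and to the differences between knockout effects gave 0 calls each. Between SVZ and HC1, where 0 were called, 2 were called with a pseudocount of 0.1 (Hist2h3c1 lower, Hist1h3i higher), 2 with array weights (Hist3h2a lower, Hist1h4d higher) and 2 in a fit of only the groups compared (Hist3h2a and Hist2h2aa1 lower); leaving out 1 replicate gave 0 to 1, the 1 without HC2 wild type replicate 2. The cause was not tested. Leaving out 1 replicate moved the HC2 minus HC1 difference of Hist2h2be between -0.044 and 0.259 and that of Hist1h2aa between -0.21 and 0.093. In HC2, leaving out 1 replicate moved the median knockout difference between 0.34 and 1.44. With array weights, 19 histone genes in HC2 had an unadjusted limma p under 0.05 and 0 were called. Without knockout replicate 8 these were 13 and 0. Both counts lack the share of all genes at that threshold.

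The replicate block gave 65 calls between HC2 and HC1 and 0 between SVZ and HC1, in the SVZ and in HC1. Same-numbered libraries of the SVZ and HC1 did not deviate together, with correlations of -0.26 to 0.01, and HC2 groups share no number. Of the 6 mouse numbers that HC2 shares with the first round in 1 genotype, 2 have donors of different sex in the labels, and the other 4 pairs had correlations of -0.054 to 0.025. Depth limits the first-round values of most H3 and H4 genes, which rest on a few reads.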

Other observations

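Cell type markers were also compared between the rounds, against 22.8% of all genes called higher and 31.5% lower in HC2. Of 7 astrocyte markers, 3 were called higher in HC2 than in HC1 and 0 lower by limma, and of 8 oligodendrocyte markers 0 were higher and 5 lower. Sox2 rose by 1.32 (SE 0.15) and Hes5, a Notch target, by 1.38 (SE 0.38), whereas Nes, an intermediate filament of neural stem cells, fell by 1.22 (SE 0.28). Of 7 neural stem and progenitor genes, 2 were higher and 2 lower, and of 6 neuron markers 2 were lower, shares near those of all genes. Of 6 microglial markers 1 was tested and it was lower, and of 6 endothelial markers 2 were tested and 1 was lower.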
